A study of Mus musculus with 6 samples.

Results

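Complement and coagulation genes were followed in the lungs of Zpbp2 knockout (KO) and wild type (WT) mice. The set holds 36 genes, listed by name and found by their symbol in the deposited table, out of 41388 genes in all. It contains 9 complement components, 7 complement regulators, 3 complement receptors, 8 coagulation factors, 6 anticoagulants and 3 genes of fibrinolysis. All 36 were matched, and all 36 passed the filter on low counts.

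RNA was sequenced from the lungs of adult mice at Zeitgeber time 7 (ZT7), in the light phase of a 12h:12h light/dark cycle. The labels gave 3 WT libraries (WT1 to WT3) and 3 Zpbp2 KO libraries (KO1 to KO3), from 3 mice each by the study's methods, and the strain of all 6 as C57BL/6J. KO mice lacked the first exons of Zpbp2 in every cell from conception, with an allele of 129S7 origin on a C57BL/6J background that had been kept for several years. WT mice were born in the same colony, no agent was given to either genotype, and the sex of each mouse was not given in the labels.

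Complement is a cascade of plasma proteins in which C3 is cleaved after an antibody, a sugar pattern or spontaneous turnover starts the chain, and which ends in a pore formed by the late components. Coagulation is a parallel cascade in which tissue factor and factor VII start the formation of thrombin, which cuts fibrinogen to fibrin, while thrombomodulin, protein C, antithrombin and tissue factor pathway inhibitor hold it back. The liver makes most of the circulating proteins of both systems, while in the lung the endothelium carries thrombomodulin and von Willebrand factor, and macrophages, fibroblasts and epithelium make several complement proteins locally. Levels of RNA in whole lung do not tell a smaller number of cells of a type from less RNA per cell.

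Total counts ranged from 59134950 to 71354388 per library, and the 36 genes took 0.516% to 0.574% of them, with at least 11 counts for every one of the 36 in every library. Zpbp2 itself (chr11:98551097-98558665, GRCm38) had 20, 15 and 7 counts in WT1 to WT3 and 1, 0 and 0 counts in KO1 to KO3. KO2 and KO3 differed by little more than counting noise, with a ratio of 1.71 to 1.93 to the counting variance for genes with 20 to 20000 counts in the pair, against 3.74 to 21.0 for KO1 and KO2. Above 20000 counts the ratio was 3.32 for KO2 and KO3 and 147 for KO1 and KO2. At 20 to 200 counts WT1 and WT2 were also close, at 1.86, but their ratio grew to 51.6 above 20000 counts. KO2 and KO3 were therefore summed and counted as 1 sample, which gives n = 3 for WT and n = 2 for KO. WT3 and KO1 stood apart by squamous epithelium markers, whose summed level was 5087 and 9651 CPM there and 35.5 to 47.1 CPM in the other 4 libraries. CPM expresses a count relative to the scaled library size.

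In the comparison of KO with WT none of the 36 genes passed the test. With edgeR's quasi-likelihood test and Benjamini-Hochberg adjustment over 18660 genes, 0 of 36 had an adjusted p of at most 0.05, while 426 of all tested genes (2.28%) did. Before adjustment, 8 of 36 (22.2%) had a p of 0.05 or below, against 27.3% of all tested genes. DESeq2 on the same samples called 7 of 36 (19.4%), against 21.5% of all genes. With the 6 libraries as separate samples edgeR called 5 of 36 (13.9%), against 18.9% of all genes. The median log2 fold change (KO minus WT, here and throughout) was -0.05 over the 36 genes, with 15 above and 21 below 0, and 0.02 over all tested genes. By role the median was 0.08 for complement components, -0.10 for regulators, -0.10 for receptors, -0.14 for coagulation factors, 0.12 for anticoagulants and -0.01 for fibrinolysis.

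**Figure D1:**
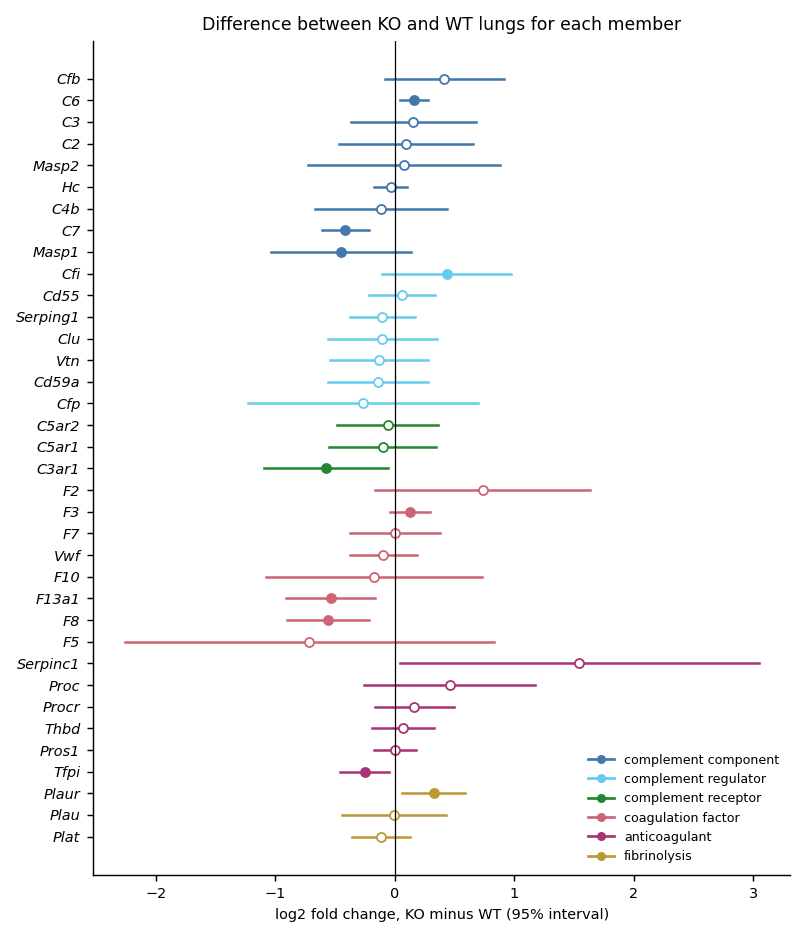
Log2 fold change, KO minus WT, of each of the 36 genes with its 95% interval from edgeR, grouped and coloured by role, where filled points mark genes whose KO libraries all lay above or all below the WT libraries. Intervals are narrow for Hc, C6 and Pros1 and widest for F5 and Serpinc1, and 10 of the 36 points are filled.

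Expressed per transcript length, the set spanned 4 orders of magnitude in WT lung. TPM, a share of all transcripts computed from counts and exon length, was 799 ± 14 (SD, n = 3) for Serping1, the inhibitor of C1 and of kallikrein, and 753 ± 68 for C3, the central component. These means lay within the spread of C3. Thbd, the endothelial thrombomodulin that turns thrombin toward protein C, followed at 581 ± 25 TPM, C7, a component of the pore, at 414 ± 12, and Hc, which encodes C5, at 336 ± 5.7. Clu, a fluid-phase inhibitor of the pore, had 312 ± 65 TPM, and its spread covered the mean of Hc.

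The next genes were C4b at 164 ± 22 TPM, Vwf, the platelet-tethering protein, at 117 ± 10, and Pros1, the cofactor of protein C, at 87.5 ± 1.9. F3, which encodes tissue factor, had 67.5 ± 3.8 TPM, against 16.3 ± 2.3 TPM for its ligand F7. Among fibrinolysis genes the urokinase receptor Plaur had 48.0 ± 5.2 TPM, the tissue activator Plat 30.1 ± 2.0 and urokinase Plau 21.9 ± 1.1. The 3 anaphylatoxin receptors lay lower, with C5ar1 at 11.8 ± 2.2 TPM, C3ar1 at 5.04 ± 1.0 and C5ar2 at 3.85 ± 0.25. At the low end were prothrombin F2 at 0.350 ± 0.031 TPM, the lectin pathway protease Masp2 at 0.262 ± 0.031 and antithrombin Serpinc1 at 0.0772 ± 0.037. C4b has a near-identical copy in C4a and Cd59a one in Cd59b, so their counts are uncertain, and so are those of Masp2 and Serpinc1, whose exons share 1817 and 2942 bp with the opposite-strand genes Tardbp and Zbtb37.

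**Figure D2:**
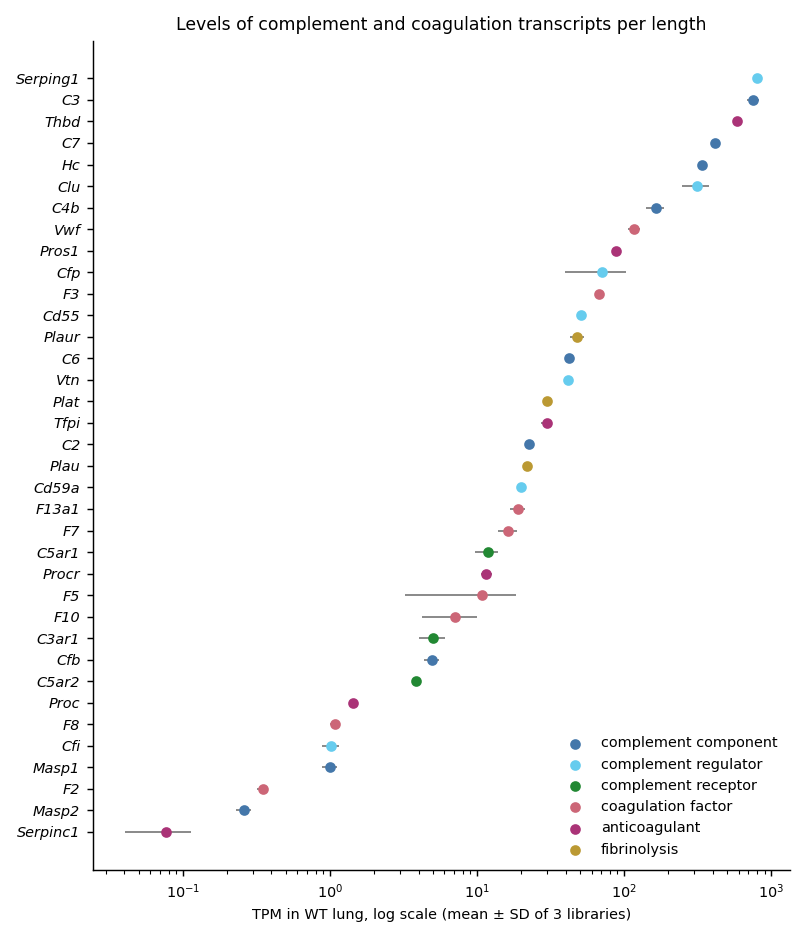
TPM of the 36 genes in WT lung on a log axis, as the mean with the SD of 3 libraries, coloured by role and ordered by level. Serping1, C3 and Thbd lead, Serpinc1 is lowest, and the error bars are long for F5, Cfp, F10 and Serpinc1.

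The most abundant gene of each role, by CPM, did not pass the test. C3 had 1117, 1346 and 1289 CPM in WT1 to WT3 and 1087, 1697 and 1676 CPM in KO1 to KO3, so that KO1 lay below every WT library and the other 2 KO libraries above them. Its log2 fold change was 0.16 (SE 0.20, adjusted p = 0.676). Serping1 had 599.9, 587 and 611 CPM in WT and 622, 483 and 499 CPM in KO, with KO1 the highest of all and KO2 and KO3 the lowest (log2 fold change -0.10, SE 0.11, adjusted p = 0.592).

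C5ar1, the receptor of the C5a fragment, had 8.82, 8.60 and 11.96 CPM in WT and 9.43, 9.12 and 8.39 CPM in KO (log2 fold change -0.10, SE 0.17, adjusted p = 0.754). Vwf had 622, 547 and 656 CPM in WT and 612, 520.4 and 526 CPM in KO (log2 fold change -0.10, SE 0.11, adjusted p = 0.625). The genotypes overlapped for both genes. Thbd had 660.2, 726 and 709 CPM in WT and 804, 655 and 653 CPM in KO, with KO1 above and the other KO libraries just below the WT range (log2 fold change 0.07, SE 0.10, adjusted p = 0.723). Plat had 63.9, 56.3 and 61.6 CPM in WT and 60.3, 51.0 and 51.1 CPM in KO (log2 fold change -0.12, SE 0.09, adjusted p = 0.476). The 95% intervals for these abundant genes were -0.19 to 0.33 for Thbd, -0.38 to 0.19 for Vwf and -0.36 to 0.12 for Plat, so that a 2-fold difference of these transcripts lies outside them. The summed level of 10 endothelial markers was 3974 to 4211 CPM in WT, 4513 CPM in KO1 and 3696 to 3710.3 CPM in KO3 and KO2, the same order as for Thbd, and its part in these values was not tested.

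In 10 of the 36 genes the KO and WT libraries did not overlap. All KO libraries lay below all WT libraries in 6 of 36 (16.7%), C7, C3ar1, Masp1, F8, F13a1 and Tfpi, against 20.7% of all tested genes. All KO libraries lay above all WT libraries in 4 of 36 (11.1%), C6, Cfi, F3 and Plaur, against 20.0% of all tested genes. Both shares were below the background.

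C6 and C7 encode consecutive parts of the membrane pore and lie near each other on chromosome 15. C6 is at chr15:4727175-4814967 on the plus strand and C7 at chr15:4988762-5063740 on the minus strand. C7 had 347, 369 and 357 CPM in WT1 to WT3 and 287, 249 and 248 CPM in KO1 to KO3. C6 had 48.7, 48.0 and 48.3 CPM in WT and 52.8, 53.8 and 55.9 CPM in KO. On the CPM scale the genotypes were thus separated in opposite directions for C6 and C7. On the TPM scale, where a change in the most abundant transcripts shifts all others, C6 was lower in KO too, with 42.1 ± 0.52 TPM in WT and 39.6 ± 0.61 TPM in KO, so the direction of its small difference depends on the scaling. The log2 fold change was -0.41 for C7 (SE 0.08, adjusted p = 0.0576), the smallest adjusted p of the 36, and 0.16 for C6 (SE 0.05, adjusted p = 0.110). Over 17 alternative settings the adjusted p of C7 ranged from 4.26e-05 to 0.207 with 5 calls, and that of C6 from 0.0201 to 0.284 with 2 calls. Hc, the component before them in the pathway, had a log2 fold change of -0.03 with a 95% interval of -0.17 to 0.11.

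F8 encodes factor VIII, the cofactor of factor IX that endothelial cells secrete. Its level was 3.21, 3.66 and 3.44 CPM in WT1 to WT3 and 2.40, 2.18 and 2.33 CPM in KO1 to KO3. F13a1 encodes the A subunit of factor XIII, the enzyme that crosslinks fibrin and that macrophages express. It had 35.2, 44.8 and 44.1 CPM in WT and 31.6, 26.1 and 24.5 CPM in KO. KO and WT differed by -0.56 on the log2 scale for F8 (SE 0.13, adjusted p = 0.0799, range 0.00540 to 0.241, 2 of 17 alternatives called) and -0.54 for F13a1 (SE 0.15, adjusted p = 0.0993, range 0.00716 to 0.273, 4 of 17 called). Of 10 macrophage markers 8 were in the table, and their sum of 4705 to 5531 CPM in WT and 5802 to 6174 CPM in KO was mostly Lyz2, which alveolar type 2 cells also express. Without Lyz2 the other 7 summed to 499 to 589 CPM in WT and 442 to 451 CPM in KO, the same direction as F13a1. Lower in every KO library than in every WT library were 3 of the 7 (Csf1r, Mrc1 and Mertk), against 20.7% of all tested genes. The markers did not move together. Lyz2 was higher in every KO library, and Cd14 had 27.6, 26.5 and 29.5 CPM in WT and 29.5, 37.0 and 37.7 CPM in KO. Marco had 6.06, 7.34 and 13.2 CPM in WT and 13.5, 12.2 and 12.3 CPM in KO. The part of macrophage RNA in the value of F13a1 was not tested.

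Tfpi, the inhibitor of tissue factor with factor VII, had 56.3, 52.8 and 48.3 CPM in WT and 45.5, 43.8 and 40.7 CPM in KO, while its target F3 had 51.2, 55.9 and 58.1 CPM in WT and 59.5, 59.6 and 60.9 CPM in KO. All KO libraries were below WT for the inhibitor and above WT for tissue factor, but the gap between the nearest WT and KO libraries was small for both, and on the TPM scale F3 too was lower in KO, at 62.0 ± 2.1 TPM against 67.5 ± 3.8 TPM in WT. In log2 fold change this was -0.25 for Tfpi (SE 0.08, adjusted p = 0.132, range 0.0305 to 0.379, 4 of 17 called) and 0.13 for F3 (SE 0.06, adjusted p = 0.285, range 0.161 to 0.718, none of 17 called). F7, the ligand of tissue factor, had a log2 fold change of 0.00 (SE 0.15) with a 95% interval of -0.37 to 0.38. Plaur, the receptor that holds urokinase at the cell surface, had 36.4, 39.6 and 45.6 CPM in WT and 52.4, 47.9 and 49.7 CPM in KO. On the TPM scale it had 48.0 ± 5.2 TPM in WT and 50.6 ± 4.7 TPM in KO, a difference within either SD. Its log2 fold change was 0.32 (SE 0.10, adjusted p = 0.130, range 0.0350 to 0.331, 2 of 17 called), whereas that of urokinase Plau was -0.01 (SE 0.17).

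C3ar1, the receptor of the C3a fragment on myeloid cells, had 5.74, 6.70 and 8.57 CPM in WT and 4.38, 4.92 and 5.05 CPM in KO. WT3 was the highest library and the 3 KO libraries lay close together below WT. The log2 fold change was -0.57 (SE 0.20, adjusted p = 0.154, range 0.0420 to 0.333, 1 of 17 called, by DESeq2). Of the other anaphylatoxin receptors, C5ar1 and C5ar2 had log2 fold changes of -0.10 and -0.06 with overlapping genotypes. Masp1, a protease of the lectin pathway, had 2.91, 2.96 and 3.64 CPM in WT and 2.78, 1.90 and 1.80 CPM in KO (log2 fold change -0.45, SE 0.23, adjusted p = 0.277). Cfi, the protease that inactivates C3b and C4b, had 0.737, 0.826 and 0.634 CPM in WT and 0.889, 1.06 and 1.10 CPM in KO, from 38 to 66 counts per library (log2 fold change 0.43, SE 0.21, adjusted p = 0.263). Neither passed the test in any alternative.

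**Figure D3:**
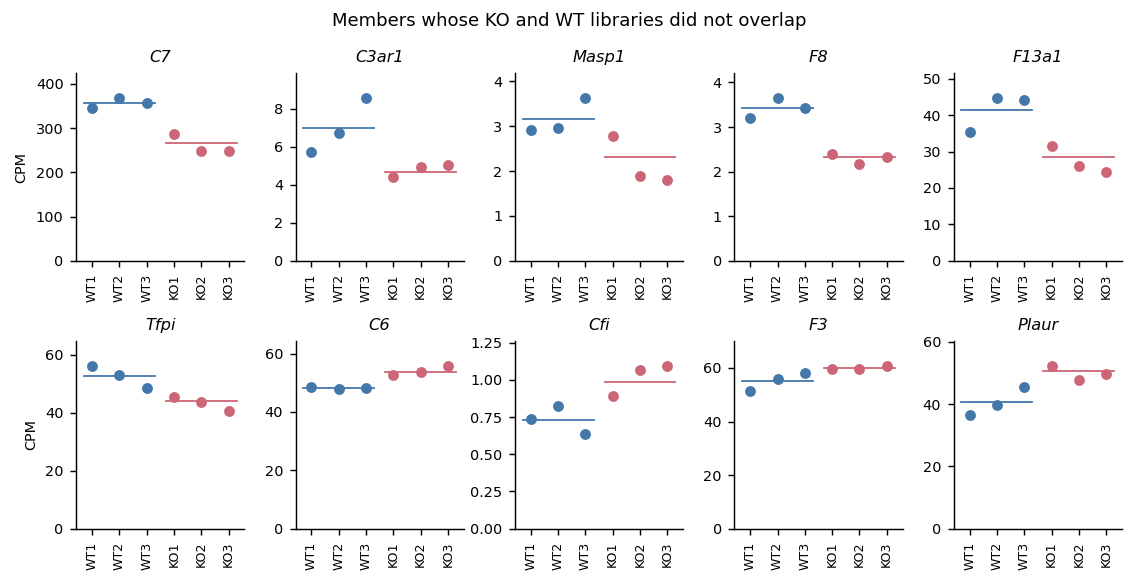
CPM in each library for the 10 genes whose KO (red) and WT (blue) libraries did not overlap, with a line at each genotype mean, where KO2 and KO3 are averaged first, and a linear axis from 0. C7, F8 and F13a1 show the clearest steps down, and the steps of C6, F3 and Tfpi are small against their level.

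Promoter sequences were taken from RefSeq (GRCm38.p6) for 24 of the 36 genes, in windows from 250 bases before to 50 bases after the start site. The AP-1 motif TGACTCA, searched on both strands, was in 4 of the 24 genes, F3, Plaur, Procr and C3ar1, and in 5.20% of all 32851 windows. Of these 4, F3 and Plaur were higher in all KO libraries on the CPM scale, and C3ar1 was lower in all of them. Procr, the endothelial receptor of protein C, overlapped (log2 fold change 0.16, SE 0.13, adjusted p = 0.469). In TPM the mean of F3 was lower in KO, and that of Plaur differed by less than the SD. The 250 bases before the start of each are shown 5′ to 3′ in the direction of the gene with the motif or its reverse complement in capitals, because the same letters stand before genes with CPM differences of opposite sign. The motif begins 135, 69, 154 and 22 bases before the start in F3, Plaur, Procr and C3ar1.
F3, chr3:121723287-121723536, plus strand: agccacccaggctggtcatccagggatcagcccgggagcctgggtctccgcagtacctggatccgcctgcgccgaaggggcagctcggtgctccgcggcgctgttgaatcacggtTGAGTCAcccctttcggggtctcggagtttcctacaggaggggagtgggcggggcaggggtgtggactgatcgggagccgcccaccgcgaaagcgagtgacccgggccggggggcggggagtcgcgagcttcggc
Plaur, chr7:24462233-24462482, plus strand: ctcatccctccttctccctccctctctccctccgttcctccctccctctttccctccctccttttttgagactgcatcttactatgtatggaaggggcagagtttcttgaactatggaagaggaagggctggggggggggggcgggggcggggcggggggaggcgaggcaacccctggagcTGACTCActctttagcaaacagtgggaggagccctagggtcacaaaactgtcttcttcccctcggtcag
Procr, chr2:155750967-155751216, plus strand: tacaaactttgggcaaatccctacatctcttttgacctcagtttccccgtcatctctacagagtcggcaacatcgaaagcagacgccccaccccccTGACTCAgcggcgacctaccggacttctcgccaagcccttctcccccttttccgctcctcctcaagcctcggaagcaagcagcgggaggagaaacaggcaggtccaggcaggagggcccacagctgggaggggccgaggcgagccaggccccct
C3ar1, chr6:122856158-122856407, minus strand: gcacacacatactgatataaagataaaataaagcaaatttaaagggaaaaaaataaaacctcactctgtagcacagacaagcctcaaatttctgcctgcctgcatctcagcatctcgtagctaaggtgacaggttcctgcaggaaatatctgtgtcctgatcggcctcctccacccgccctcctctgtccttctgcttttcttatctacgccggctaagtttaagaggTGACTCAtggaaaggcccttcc

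The other motifs searched in the same windows were the clock E-box CACGTG, found in 1 of 24 genes (Tfpi) and 7.15% of all windows, and the D-box core TTATGTAA, found in 0 of 24 and 0.938%. The HNF1 core GTTAAT was in 6 of 24 genes and 7.10% of all windows, and the nuclear receptor core AGGTCA in 11 of 24 and 16.3%. None of the motifs contains another. A match describes the letters in the window and is no evidence that a factor binds there.

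A further group of genes varied between libraries of one genotype. Serpinc1, which encodes the thrombin inhibitor antithrombin, had 0.150, 0.157 and 0.334 CPM in WT1 to WT3 and 0.317, 0.822 and 0.976 CPM in KO1 to KO3, from 11, 11, 20, 20, 51 and 57 counts. KO2 and KO3 stood 2.46-fold above the next library, and KO1 was level with WT3. Its log2 fold change of 1.54 (SE 0.59, adjusted p = 0.175) was the largest of the 36 and the most uncertain after F5. F2 and Proc, which encode prothrombin and protein C, were singled out after their values were seen because they share this profile. F2 had 0.505, 0.569 and 0.484 CPM in WT and 0.556, 1.08 and 1.23 CPM in KO (log2 fold change 0.73, SE 0.35, adjusted p = 0.254). Proc had 1.17, 1.07 and 1.22 CPM in WT and 1.14, 1.90 and 2.11 CPM in KO (log2 fold change 0.46, SE 0.28, adjusted p = 0.355).

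All 3 are genes that the liver expresses at high level. The hepatocyte gene Alb, which encodes albumin, had 76, 89 and 58 counts in WT and 193, 1491 and 1457 counts in KO, so that it was highest in KO2 and KO3 like these 3, but unlike them was above every WT library in KO1 too. The 16 hepatocyte markers summed to 79.95 to 102 CPM in WT, 42.8 CPM in KO1 and 123 to 124 CPM in KO3 and KO2, with none of the 16 at 0 in all libraries. Cyp2e1 and Rbp4 carried most of that sum in WT, and the other 14 summed to 6.40 to 7.51 CPM in WT, 10.1 CPM in KO1 and 55.3 to 56.4 CPM in KO3 and KO2, with all 14 above WT in both of these libraries. Since KO2 and KO3 counted as 1 sample, the 3 genes rest on 1 sample of KO for their difference, and the part of liver-type RNA in it was not tested.

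F5, which encodes the cofactor of factor X in the formation of thrombin, had 14.8, 16.0 and 47.0 CPM in WT and 11.8, 19.7 and 19.5 CPM in KO. WT3 stood 2.39-fold above the next library, the log2 fold change was -0.71 (SE 0.61, adjusted p = 0.504), and without WT3 it was 0.03. Cfp and F10 were singled out after their values were seen because WT3 was their highest library too. Cfp, the properdin that stabilises the C3 convertase, had 26.5, 33.1 and 60.1 CPM in WT and 28.7, 35.7 and 39.1 CPM in KO. F10, the protease that cuts prothrombin, had 4.89, 4.67 and 9.24 CPM in WT and 4.83, 6.38 and 6.05 CPM in KO. Without WT3 the log2 fold change of Cfp went from -0.27 to 0.15 and that of F10 from -0.17 to 0.21. WT3 shared high squamous markers with KO1, in which F5 was the lowest of the 6 libraries and Cfp and F10 lay within the range of WT1, WT2 and the other KO libraries. The part of the squamous markers in these values was not tested. The 7 macrophage markers other than Lyz2 were highest in WT3 as well, with a sum of 499, 542 and 589 CPM in WT1 to WT3 and 442 to 451 CPM in KO. The 10 neutrophil markers summed to 249, 216 and 163 CPM in WT1 to WT3 and 141 to 145 CPM in KO. The sum in WT3 was thus the lowest of WT but above every KO library. Ltf, the largest of the 10 in WT, had this order, with 127, 107 and 77.1 CPM in WT and 30.6, 56.1 and 57.8 CPM in KO. The order differed between markers, since S100a9 had 43.5, 41.3 and 26.1 CPM in WT and 49.8, 37.8 and 34.1 CPM in KO. The part of either list in these values was not tested.

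**Figure D4:**
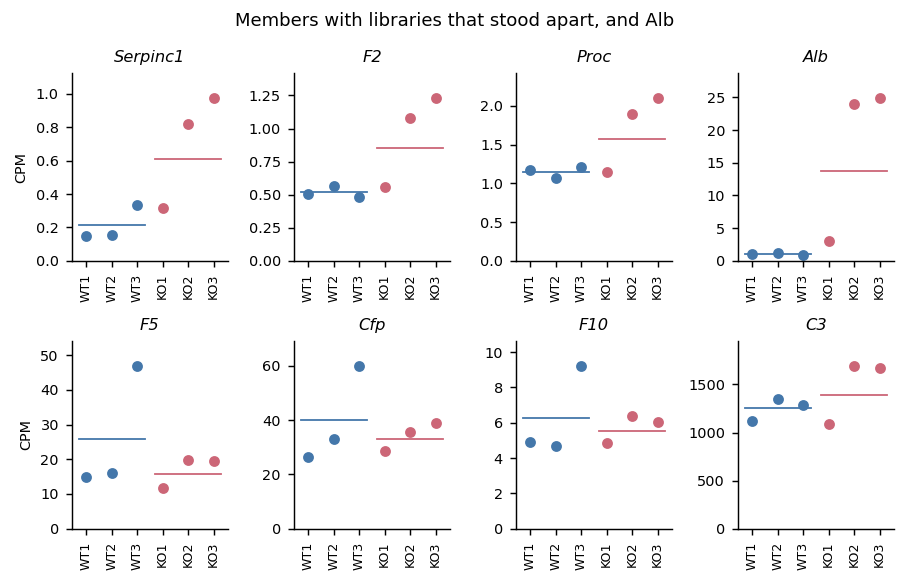
CPM in each library for genes in which 1 or 2 libraries stood apart, with Alb as a liver gene and C3 as the most abundant component, with a line at each genotype mean and a linear axis from 0. KO2 and KO3 are high for Serpinc1, F2, Proc, Alb and C3, and WT3 is high for F5, Cfp and F10.

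The components that form the C3 convertases were also split within KO. C2 had 27.0, 29.5 and 28.0 CPM in WT and 22.4, 37.0 and 37.8 CPM in KO, and C4b had 261, 295 and 346 CPM in WT and 219, 334 and 334 CPM in KO. Cfb, factor B of the alternative pathway, had 4.07, 4.31 and 5.15 CPM in WT and 5.03, 6.57 and 7.31 CPM in KO. In C2, C3 and C4b the KO1 library was the lowest of all 6. The log2 fold changes were 0.09 for C2 (SE 0.22), -0.12 for C4b (SE 0.22) and 0.41 for Cfb (SE 0.20, adjusted p = 0.248). C2 and Cfb are neighbours on chromosome 17. In the same-strand model Gm20547 lie 2246 bp of the exons of Cfb and most of the 1817 bp of C2 that overlap other genes. Gm20547 had 0 counts in every library, which does not show whether reads of the shared exons were left uncounted. The counts of C2 and Cfb are therefore uncertain. The 8 mesothelial markers summed to 536 to 578 CPM in WT, 531 CPM in KO1 and 791 to 792 CPM in KO3 and KO2, which is the order of C2 and C3 in KO, and their part in these values was not tested.

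With WT3 and KO1 left out, 10 of the 36 genes were called (27.8%), against 11.9% of all tested genes. In that fit the summed KO2 and KO3 form the only KO sample, which is assumed to vary as WT1 and WT2 do, so the calls compare 1 sample with 2. C2, C3, Cfb, F2, Plaur and Serpinc1 were higher, with log2 fold changes of 0.40, 0.45, 0.72, 1.10, 0.36 and 2.53. C7, Vtn, F13a1 and Tfpi were lower, with -0.53, -0.42, -0.66 and -0.37. Vtn, which encodes vitronectin, had 28.1, 25.7 and 27.6 CPM in WT and 29.2, 21.0 and 19.4 CPM in KO, and its main log2 fold change was -0.13 (SE 0.16). With KO2 and KO3 left out instead, C2, C3 and Vtn changed sign, to -0.33, -0.20 and 0.10, and edgeR called 0 of 36 (5 with a p of 0.05 or below before adjustment). C7, F13a1, Tfpi, C6, F8 and Plaur kept their sign in all 17 alternatives.

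Of 74 further genes of complement, coagulation, fibrinolysis and platelet adhesion listed with the study's results known, 73 were in the table and 60 passed the filter. All KO libraries lay above all WT libraries in 16 of these 60 (26.7%) and below in 8 (13.3%). The shares over all tested genes were 20.0% and 20.7%.

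The most abundant of the further genes were Anxa2, which encodes a cell surface receptor of plasminogen and its activator, and Cd93, an endothelial and myeloid receptor. Anxa2 had 576, 641 and 632 CPM in WT and 811, 773 and 763 CPM in KO (log2 fold change 0.36, SE 0.07, adjusted p = 0.0589). Cd93 had 576, 534 and 529 CPM in WT and 521, 503 and 498 CPM in KO (log2 fold change -0.09, SE 0.07, adjusted p = 0.434). On the CPM scale the KO libraries lay above WT for Anxa2 and below WT for Cd93, and neither passed the test. On the TPM scale Anxa2 had 512 ± 26 TPM in WT and 554 ± 45 TPM in KO, a difference within the SD of KO.

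Other genes of the list were picked after their values were seen. S100a10, the partner of Anxa2, gave 0.36 on the log2 scale (SE 0.08, adjusted p = 0.0704), and Gas6, a vitamin K-dependent ligand of receptor kinases, one of 0.27 (SE 0.06, adjusted p = 0.0656), with all KO libraries above WT for both. Cfd, the protease that activates factor B and a product of adipocytes, had 245, 332 and 194 CPM in WT and 45.7, 147 and 146 CPM in KO (log2 fold change -1.41, SE 0.55, adjusted p = 0.180). The 10 adipocyte markers, Cfd among them, summed to 1238 to 1787 CPM in WT and 366 to 451 CPM in KO, the same direction, and their part in the value of Cfd was not tested. Fga, the fibrinogen alpha chain, had 4 counts in each WT library and 22, 107 and 103 counts in KO1 to KO3, and Plg, which encodes plasminogen, had 10, 6 and 5 counts in WT and 15, 54 and 40 counts in KO. These liver genes were highest in KO2 and KO3, as Serpinc1, F2, Proc and Alb were. Itga2b, the platelet integrin chain and itself a platelet marker here, had 32.5, 21.7 and 24.9 CPM in WT and 35.4, 43.5 and 45.0 CPM in KO (log2 fold change 0.60, SE 0.20, adjusted p = 0.141), and the 8 platelet and megakaryocyte markers summed to 75.1 to 103 CPM in WT and 111 to 155 CPM in KO. None of the genes in this paragraph passed the test.

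**Figure D5:**
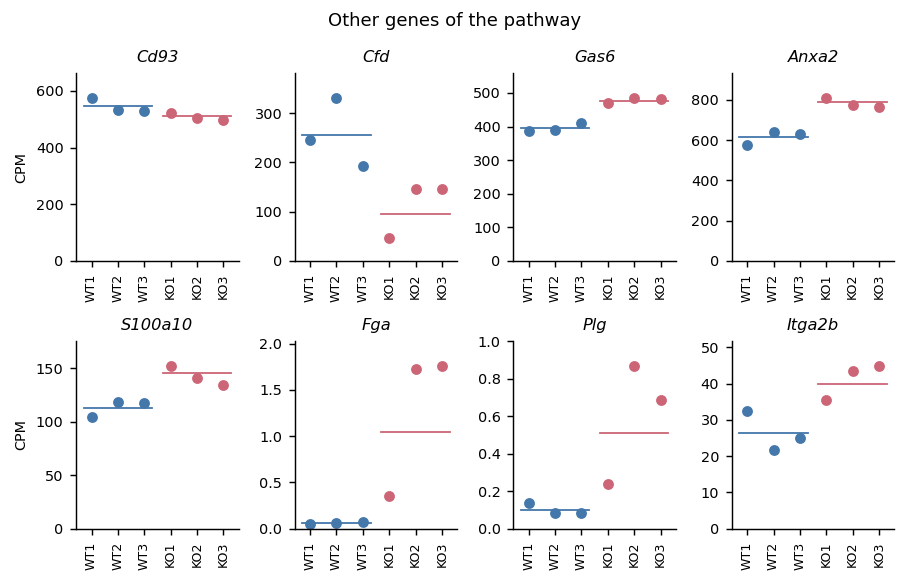
CPM in each library for 8 further genes of complement, coagulation and fibrinolysis, with a line at each genotype mean and a linear axis from 0. Anxa2, S100a10 and Gas6 are higher in every KO library, Cd93 is slightly lower in every KO library, Fga and Plg are highest in KO2 and KO3, and Cfd is lowest in KO1.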

How the data were processed

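RNA was measured by sequencing in 6 lung libraries, 3 for each genotype, and grouped by the labels. The authors trimmed the reads, aligned them to GRCm38 with STAR and made a count for every gene with HTSeq, all within the GenPipes pipeline, and deposited raw counts with no normalization. The submitters' processing notes name Trimmomatic 0.36, STAR 2.5.3a, Picard 2.9.0, HTSeq 0.6.0 and mm10. The annotation release and the use of strand in counting are not given in the sources used here, so genes whose exons overlap are uncertain. Total counts, from 59134950 to 71354388, set the counting error, which duplicate reads make larger.

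Here the counts were analysed with edgeR 4.0.16 in R 4.3.3, with filterByExpr, TMM scaling and the quasi-likelihood test, on WT1 to WT3 against KO1 and the sum of KO2 and KO3. P-values are two-sided and were adjusted over all 18660 genes that passed the filter, and genes with an adjusted p of 0.05 or below were called. Standard errors and 95% intervals come from the same fit. CPM uses the TMM-scaled size of each library, and means average KO2 and KO3 first. TPM uses the union of exons in GENCODE M21, as do gene coordinates. The pairwise ratio divides the squared deviation from proportional counts by the counting variance, as a median over genes. The study's methods give 3 mice for each genotype, but KO2 and KO3 were so close that they may be 1 RNA or library sequenced again, which the files do not settle.

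The members and gene lists were chosen with earlier results of these data known, so no test was made over a list. Values in every library are given for called genes, genes whose genotypes did not overlap, genes with 1 or 2 libraries at least 2-fold apart from the rest, and the most abundant gene of each role. Of the further genes, the 2 highest by CPM are named, and some results are not reported here. Alternatives were 6 separate libraries, a replicate block, DESeq2 1.42.0, other scalings and filters, a squamous marker term, a length and GC offset, and libraries left out, of which leaving out KO2 and KO3 together was chosen after seeing the data. The fit was tested on simulated data.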

Additional observations from a re-analysis of the deposited data

How the results depend on the processing

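No member was called in the fit reported, nor with library size or RLE scaling, without a low-count filter, when every library had to reach 10 counts, with the length and GC offset, or with any 1 library left out (0 to 0). Before adjustment, 3 to 15 members had a p of 0.05 or below in those fits. With 6 separate libraries 5 members, 11 further pathway genes and 3402 of all genes were called, with DESeq2 7, 15 and 3875, with the squamous term 2, 11 and 2288, and with WT3 and KO1 left out 10, 18 and 2256. With KO2 and KO3 left out, 0 further genes and 0 of all genes were called by edgeR (5070 before adjustment). With the length and GC offset, 0 further genes and 4 of all genes were called, and with at least 10 counts 937 of all genes. Leaving out 1 library gave 0 to 418 of all genes and 0 to 1 further genes, with 0 of all genes called without WT1, WT2 or WT3 (3346 to 4193 before adjustment) and 17 without KO1. Library size scaling shifted the median of all genes by -0.05 and gave 117 higher of 306 calls, against 257 higher of 426.

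A replicate block on the labels' numbers, with 6 separate libraries, called 2 of 36 members (C7 and Tfpi), 2 of 56 further genes and 1157 of 18014 genes. The numbers did not pair the samples, since deviations of same-numbered libraries correlated at -0.64, 0.77 and -0.83 over genes.

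Of 612 fold changes of members over the alternatives, 43 changed sign, and 0 of these had an adjusted p of at most 0.05. In all, 15 members kept their sign throughout. The log2 fold change of F7, 0.00 in the main fit, was -0.049 with library size scaling, -0.00075 with at least 10 counts, -0.012 with the squamous term, -0.19 with the length and GC offset and -0.047 without KO2 and KO3. The length and GC offset turned Hc to 0.067, Vwf to 0.091 and Pros1 to 0.022. Without WT3 and KO1, C4b was 0.26, Cfp 0.32, C5ar1 0.0069, Cd59a 0.046, F5 0.35, F10 0.38 and Thbd -0.085. Without KO2 and KO3, C2 was -0.33, C3 -0.20, C5ar2 0.12, Cd55 -0.10, Serping1 0.052, Masp2 -0.33, Vtn 0.10, Vwf 0.0060, Plau 0.23, Proc -0.014 and Pros1 0.085. With 1 library left out in turn, the log2 fold change covered Clu -0.21 to 0.075, F7 -0.10 to 0.11, Pros1 -0.11 to 0.0055, Cfp -0.49 to 0.15, C5ar1 -0.19 to 0.063, F5 -0.99 to 0.034, F10 -0.36 to 0.21, Plau -0.31 to 0.031, C4b -0.21 to 0.15, Cd59a -0.17 to 0.071, Thbd -0.096 to 0.089 and C5ar2 -0.28 to 0.0031. The cause was not tested. With n = 3 and n = 2, the median SE of the members was 0.16, which limits what difference could be called.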
